A study of Homo sapiens with 2 samples.

Results

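The genes described are 10 core genes of TGF-beta signalling, taken by name from the 12918 genes of the deposited table: the ligand genes TGFB1, TGFB2 and INHBA, the receptor genes TGFBR1 and TGFBR2, and the SMAD genes SMAD2, SMAD3, SMAD4, SMAD6 and SMAD7. Transcript IDs were joined to symbols, values were summed per gene, and single transcripts were kept as well. The samples were 2 RNA-seq libraries of MDA-MB-231, an established human breast cancer line that lacks estrogen and progesterone receptors, grown in L15 medium with fetal bovine serum. The silencer library came from cells transfected for 48 h with a THAP7-AS1 Smart Silencer, a commercial product that combines siRNAs with antisense oligonucleotides, directed at the long noncoding RNA THAP7-AS1, and the other came from cells transfected with the negative control si-NC. The control's treatment label repeats the silencer text, and its genotype label gives si-NC. The comparison asks how transcript levels differ once THAP7-AS1 is silenced.

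Each group had 1 library, so no difference below has a replicate check or a p-value, and every statement describes these 2 libraries. The silencer column was assigned by elimination, since its header, si-v, is not explained, and every direction depends on this. The silencing was not checked here, as 0 of the 3 annotated transcripts of THAP7-AS1 were listed. Approximate depth over listed transcripts was 8320000 fragments for the silencer library and 7840000 for the si-NC library. The line's label was read against markers. The mesenchymal gene VIM was at 373 FPKM in the silencer library and 344 FPKM in the si-NC library. AXL was at 204 FPKM in the silencer library and 259 FPKM in the si-NC library. CD44 was at 114 FPKM in the silencer library and 152 FPKM in the si-NC library. FOSL1 was at 463 FPKM in the silencer library and 739 FPKM in the si-NC library. CAV1 was at 83.7 FPKM in the silencer library and 118 FPKM in the si-NC library. SPARC, also chosen as a marker usually present in this line, had no value in either library. The estrogen receptor gene ESR1 was listed at 0 in each library, and the epithelial cadherin gene CDH1 was at 0.122 FPKM in the silencer library and 0.0844 FPKM in the si-NC library. ERBB2, usually low in this line, was at 17.4 FPKM in the silencer library and 4.65 FPKM in the si-NC library. The fibroblast markers COL1A1 and PDGFRB stayed at or below 1.14 FPKM.

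TGF-beta ligands and activins bind a type II receptor kinase, which phosphorylates a type I receptor kinase, which in turn phosphorylates SMAD2 and SMAD3. These join SMAD4, enter the nucleus and act on target genes, among them SMAD7, an inhibitor that closes the loop. In breast cancer the pathway is known to restrain growth early and to favour invasion and metastasis late, and MDA-MB-231 is a common model of the late behaviour.

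At the level of whole genes, differences in the pathway core stayed below 2-fold once 1 was added to each FPKM value. Levels are FPKM, in which fragments are divided by transcript length and by the mapped total of the library, and differences are log2 ratios of (silencer FPKM + 1) to (si-NC FPKM + 1). All 10 genes reached 1 FPKM in at least 1 library, SMAD7 only through the silencer library. None of the 10 reached a 2-fold difference, where 4.86% of all 11046 genes past that level did (2.37% higher and 2.49% lower). At 1.5-fold, INHBA was higher in the silencer library (9.82% of all genes were) and TGFBR2 and SMAD4 were lower (8.91% of all genes were). Fewer cells that express a gene and less of its RNA per cell cannot be told apart in such bulk values. Together these are 3 of 10 genes, where 18.7% of all genes passed 1.5-fold in either direction. The genes depend on the measure: length-weighted without a pseudocount, INHBA and SMAD7 were past 1.5-fold higher (12.7% of all genes were) and TGFBR2 and SMAD6 lower (12.3% of all genes were). The median log2 ratio over the 10 genes was -0.15, against 0.00 over all genes past the level.

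**Figure D1:**
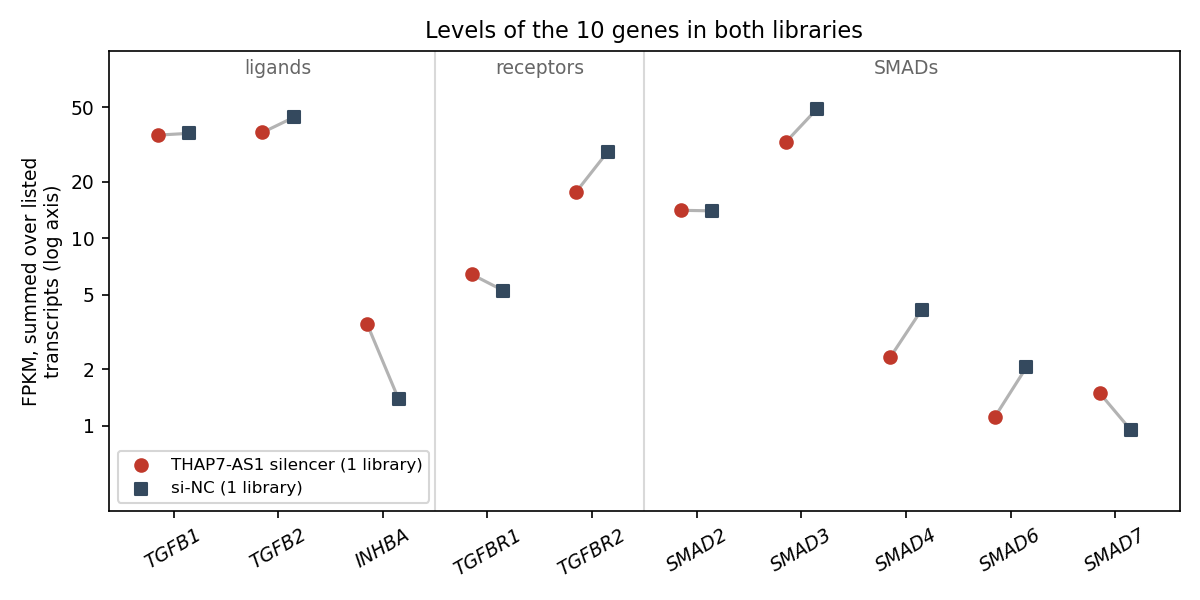
Summed FPKM (log axis) of each gene in the silencer library (red circles) and the si-NC library (dark squares), 1 library each, grouped by role. SMAD3, TGFB1 and TGFB2 lay above 30 FPKM in each library, while SMAD6, SMAD7 and INHBA stayed below 4 FPKM.

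The order of the levels was similar in the libraries. In the silencer library it ran from TGFB2 at 36.6 FPKM, TGFB1 at 35.5 and SMAD3 at 32.5, through TGFBR2 and SMAD2, down to SMAD7 at 1.49 and SMAD6 at 1.12. In the si-NC library SMAD3 stood first at 49.0 FPKM, followed by TGFB2 at 44.1 and TGFB1 at 36.3, and SMAD7 stood last at 0.942. With 1 library per group there is no spread to say which neighbours in this order differ.

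The secreted ligands TGFB1 and TGFB2 were abundant and differed little. TGFB1, the main form of the cytokine, was at 35.5 FPKM in the silencer library and 36.3 FPKM in the si-NC library (log2 -0.03). Its exons overlap those of HNRNPUL1 on the opposite strand, and with the strand setting unknown reads of the pair could not be told apart. TGFB2, which needs the coreceptor betaglycan (TGFBR3) for efficient binding, was at 36.6 FPKM in the silencer library and 44.1 FPKM in the si-NC library (log2 -0.26). The short form of its precursor, TGFB2-202, carried 96.5% of the gene's FPKM in the silencer library and 97.1% in the si-NC library. The form with an added coding exon of 28 codons in the latency peptide, TGFB2-201, was at 1.28 FPKM in the silencer library and 1.27 FPKM in the si-NC library. The shares of the forms were thus nearly level in these values. Bases of TGFB2-201 outside TGFB2-202 number 84, or 1.66% of it. The shares therefore rest on how shared reads were divided, and the error of that division was not tested.

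INHBA encodes the beta A subunit that pairs with itself to form activin A, a ligand that also acts through SMAD2 and SMAD3. It was at 3.48 FPKM in the silencer library and 1.39 FPKM in the si-NC library, the largest ratio of the 10 genes (log2 0.91). The higher value rests on about 153 fragments in the silencer library, against about 73 in the si-NC library. Weighted by transcript length, so that each fragment counts once, the log2 ratio without a pseudocount was 0.94, with a 95% counting interval from 0.54 to 1.37. Both listed transcripts encode the same 426 codons and differ in untranslated sequence only. INHBA-203, the shorter at 1632 bases, was at 1.87 FPKM in the silencer library and 0.390 FPKM in the si-NC library, on about 36 fragments in the silencer library and 7 in the si-NC library, while INHBA-201 was at 1.62 FPKM in the silencer library and 0.996 FPKM in the si-NC library. INHBA-201 held about 117 of the fragments in the silencer library and 66 in the si-NC library, and its plain FPKM ratio was 1.62. With the pseudocount of 1 the log2 ratio of INHBA-201 alone was 0.39, short of 1.5-fold.

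**Figure D2:**
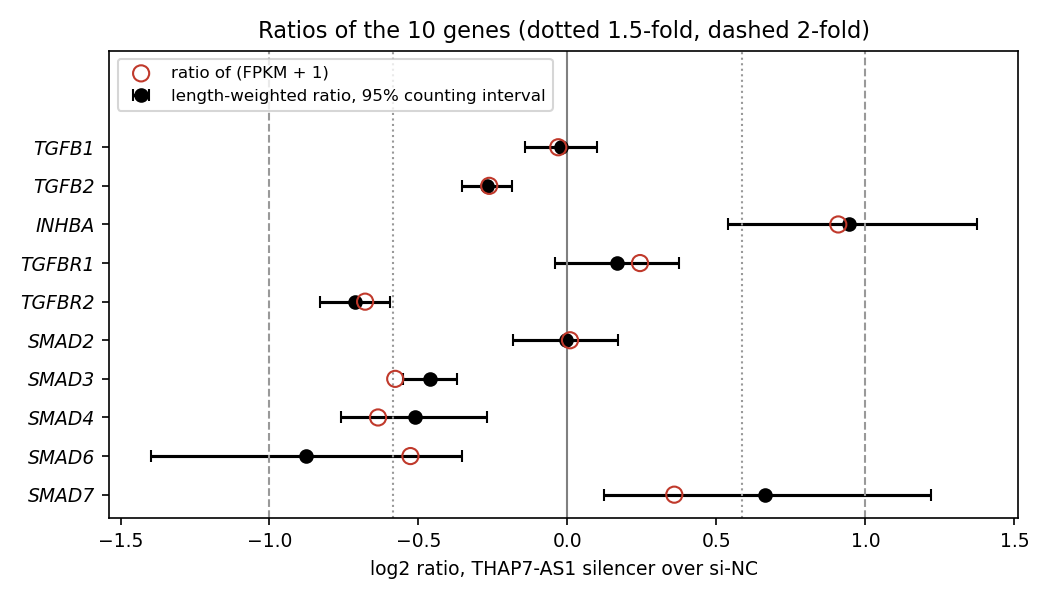
Log2 ratio of each gene, silencer over si-NC: open red circles from FPKM + 1, black points from length-weighted values with their 95% counting interval, which does not cover the variation between cultures. TGFBR2 sits left of the dotted 1.5-fold line and INHBA right of it on either measure, while TGFB1, TGFBR1 and SMAD2 have intervals that hold 0.

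The counting interval of the length-weighted ratio lay clear of 0 for 7 of the 10 genes, a share close to the 60.2% seen over all genes, so a clear interval at this depth is common and sets these genes apart in no way. The intervals of TGFB1, TGFBR1 and SMAD2 held 0.

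The 2 receptor genes had the largest movement of FPKM between listed transcripts among the 8 of the 10 genes with at least 2 of them. TGFBR2, the type II receptor that binds the ligand, was at 17.7 FPKM in the silencer library and 29.0 FPKM in the si-NC library (log2 -0.68). The length-weighted log2 ratio was -0.71, with a counting interval from -0.83 to -0.59. Beneath this moderate difference the 2 annotated transcripts of the gene went opposite ways. TGFBR2-201 (ENST00000295754) was at 2.81 FPKM in the silencer library and 21.9 FPKM in the si-NC library, 7.77-fold lower in the silencer library. TGFBR2-202 (ENST00000359013) was at 14.9 FPKM in the silencer library and 7.11 FPKM in the si-NC library, 2.10-fold higher in the silencer library. TGFBR2-201 therefore held 15.9% of the gene's FPKM in the silencer library and 75.5% in the si-NC library, and TGFBR2-202 the rest.

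The transcripts differ in the protein by 1 exon. TGFBR2-202 has 592 codons and TGFBR2-201 has 567, and the added 25 codons are exon 2 of TGFBR2-202, on chromosome 3 at chr3:30623199-30623273 (GRCh38, plus strand, whole exon, coding). This is the known alternative exon of the extracellular domain, and the receptor that holds it is known to bind TGF-beta 2 without help from betaglycan. The exon is printed because it is the coding difference between the forms that traded places, in capitals, with 15 bases of the neighbouring exons on each side, from the GENCODE transcript.
TGFBR2-202 exon 2: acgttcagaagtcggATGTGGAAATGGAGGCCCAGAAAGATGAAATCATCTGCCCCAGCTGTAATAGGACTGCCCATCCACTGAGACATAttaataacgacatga
Reads can tell the transcripts apart over little of their length. Bases found in TGFBR2-202 and not in TGFBR2-201 number 83, or 1.80% of the transcript. Those found in TGFBR2-201 and not in TGFBR2-202 number 99, all in the 5′ untranslated region, or 2.14%. The values of the 2 forms thus rest on how reads from the shared bases were divided, and the error of that division is not in the counting intervals and was not tested.

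**Figure D3:**
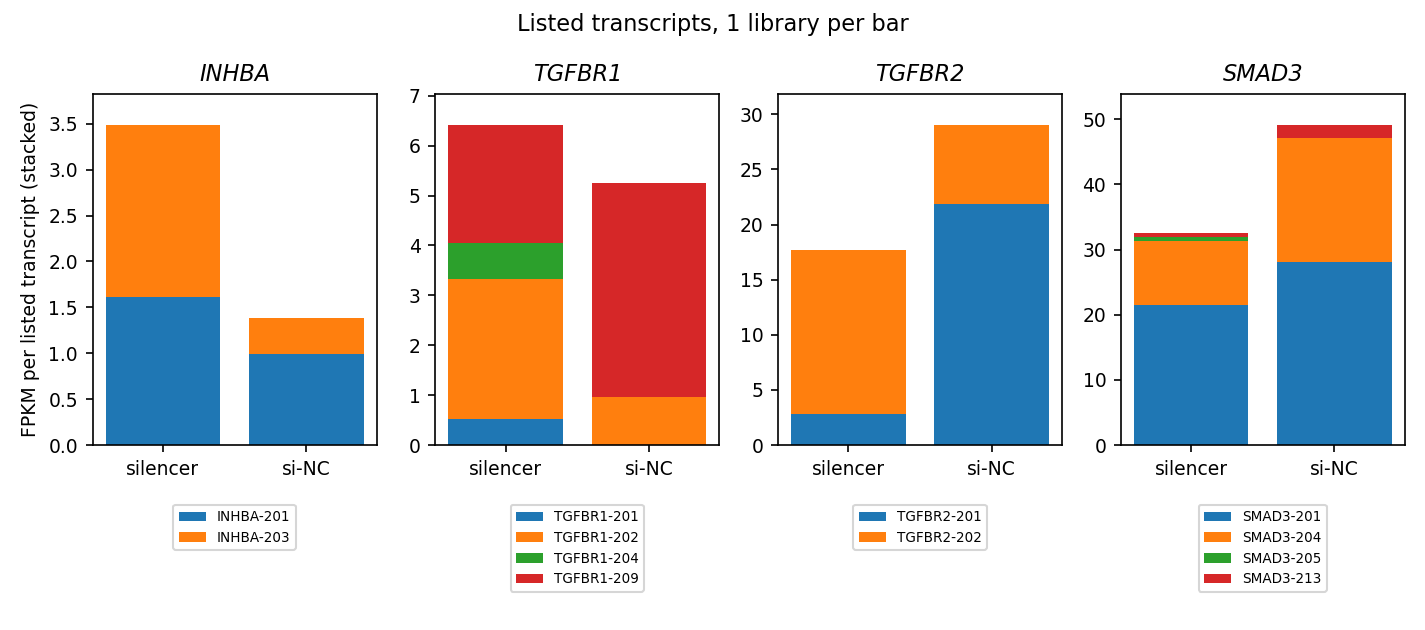
FPKM of each listed transcript, stacked, in the silencer library (left bar) and the si-NC library (right bar) for INHBA, TGFBR1, TGFBR2 and SMAD3. TGFBR2-201 fills most of the si-NC bar and little of the silencer bar, and TGFBR1-209 makes up 36.9% of the silencer bar and 81.7% of the si-NC bar.

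TGFBR1, the type I receptor kinase that phosphorylates SMAD2 and SMAD3, was at 6.40 FPKM in the silencer library and 5.25 FPKM in the si-NC library (log2 0.24). Its transcripts also traded places. TGFBR1-209 (ENST00000552516) was at 2.36 FPKM in the silencer library and 4.29 FPKM in the si-NC library. TGFBR1-202 (ENST00000374994) was at 2.79 FPKM in the silencer library and 0.961 FPKM in the si-NC library. The share of TGFBR1-209 was 36.9% in the silencer library and 81.7% in the si-NC library. A form that skips the 231-base exon 3 of TGFBR1-202, TGFBR1-201, was at 0.532 FPKM in the silencer library, about 36 fragments, and was listed at 0 in the si-NC library. TGFBR1-204, an incomplete model of 533 bases, was at 0.724 FPKM in the silencer library and was listed at 0 in the si-NC library. It made up 11.3% of the gene's FPKM in the silencer library on about 5 fragments, so part of the movement rests on this short model.

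In the coding sequence TGFBR1-209 differs from TGFBR1-202 by 12 added bases, 4 codons, at the start of its exon 3 at chr9:99132497-99132508 (GRCh38, plus strand, coding). They are shown in capitals with 15 neighbouring bases on each side because they are the whole coding difference of this pair.
TGFBR1-209 exon 3 start: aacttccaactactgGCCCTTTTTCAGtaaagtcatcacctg
Bases of TGFBR1-202 outside TGFBR1-209 number 595, or 9.13% of it, all untranslated. Those of TGFBR1-209 outside TGFBR1-202 number only 12, or 0.20% of it. This pair thus also shares most of its reads, and the error of their division was not tested.

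Such exchanges were not rare in these libraries. The most abundant listed transcript differed between the libraries in 3 of the 8 genes with 2 or more listed transcripts (INHBA, TGFBR1 and TGFBR2), where it did in 26.4% of all 8447 such genes. By size, 59.6 percentage points of the FPKM of TGFBR2 and 44.8 points of that of TGFBR1 lay on other transcripts. Among 6163 genes with a mean of at least 5 FPKM the median was 12.4 points, and 329 genes, or 5.34%, moved at least as far as TGFBR2. For TGFBR1, 88.9% of these genes moved no farther.

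**Figure D4:**
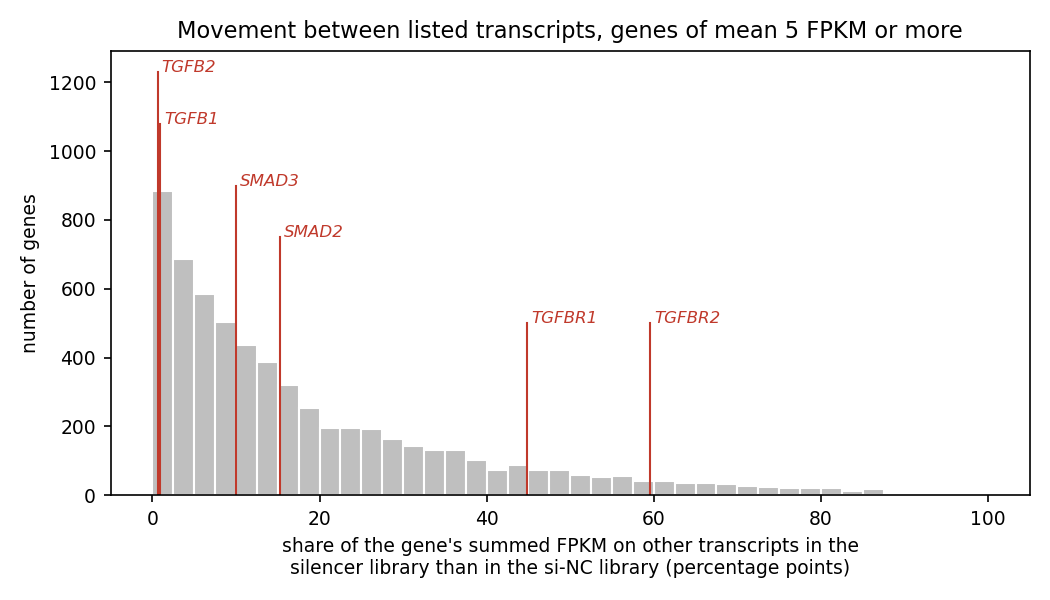
Number of genes by the share of FPKM that lies on other listed transcripts in the silencer library than in the si-NC library, in percentage points, for 6163 genes with 2 or more listed transcripts and a mean of at least 5 FPKM. Red lines mark TGFB1, TGFB2, SMAD2, SMAD3, TGFBR1 and TGFBR2; the height of a line has no meaning. TGFBR2, at 59.6 points, lies in the right tail and the ligands lie near 0.

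Of the receptor-activated SMADs, SMAD2 was level and SMAD3 lower in the silencer library. SMAD2 was at 14.1 FPKM in the silencer library and 14.0 FPKM in the si-NC library (log2 0.01). Its values came from 7 of 10 annotated coding transcripts. The highest, SMAD2-207, is an incomplete model of 828 bases, at 8.76 FPKM in the silencer library and 7.08 FPKM in the si-NC library. Exon 3 of SMAD2 inserts 30 codons into the DNA-binding MH1 domain and is known to keep the full-length protein from binding DNA directly, unlike SMAD3. Listed transcripts that hold it made up 64.9% of the FPKM of SMAD2 in the silencer library and 64.8% in the si-NC library, but all 4 of them are incomplete models of 527 to 1042 bases, while the 3 that lack it are complete models of 1714 to 10445 bases. Counted in approximate fragments, the 4 held 91 in the silencer library and 77 in the si-NC library, or 16.5% of the gene's fragments in the silencer library and 15.1% in the si-NC library. Inside this class SMAD2-211 was listed at 0 in the silencer library and at 1.38 FPKM in the si-NC library, so the close sums rest on short models that did not stay level themselves. The exon, at chr18:47870475-47870564 (GRCh38, minus strand, coding), is shown in capitals between 15 bases of its neighbours, because it divides the listed transcripts of the gene.
SMAD2 exon 3: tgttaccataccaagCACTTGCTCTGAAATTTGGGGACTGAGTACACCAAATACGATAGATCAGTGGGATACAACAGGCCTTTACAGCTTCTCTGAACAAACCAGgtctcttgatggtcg

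SMAD3, which binds DNA itself, was at 32.5 FPKM in the silencer library and 49.0 FPKM in the si-NC library (log2 -0.58), just short of 1.5-fold. The full-length form of 425 codons, SMAD3-201, was at 21.4 FPKM in the silencer library and 28.1 FPKM in the si-NC library. SMAD3-204, which starts at another first exon and encodes 320 codons without the N-terminal part, was at 9.93 FPKM in the silencer library and 19.0 FPKM in the si-NC library. Each was lower in the silencer library, with counting intervals of the log2 ratio from -0.49 to -0.30 for SMAD3-201 and from -1.21 to -0.67 for SMAD3-204. SMAD3-213, an incomplete model of 542 bases, was at 0.653 FPKM in the silencer library and 1.86 FPKM in the si-NC library. It rested on about 4 fragments in the silencer library and 11 in the si-NC library, and its counting interval held 0. Length-weighted, the log2 ratio of SMAD3 was -0.46 (counting interval -0.55 to -0.37). An unnamed gene, AC087482.1, overlaps SMAD3 exons on the opposite strand.

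SMAD4, the shared partner of all receptor-activated SMADs, was at 2.32 FPKM in the silencer library and 4.16 FPKM in the si-NC library (log2 -0.64). Part of the difference came from SMAD4-209, an incomplete model of 582 bases, listed at 0 in the silencer library and at 0.912 FPKM in the si-NC library on about 6 fragments. The full-length SMAD4-201 was at 2.32 FPKM in the silencer library and 3.25 FPKM in the si-NC library (log2 -0.36). SMAD4 was no longer past 1.5-fold when read from SMAD4-201 alone, on fragments per gene (log2 -0.47), length-weighted without a pseudocount (-0.51) or with the GC and length trend removed (-0.41).

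The inhibitory SMADs, both with 1 listed transcript and few fragments, lay on opposite sides. SMAD6, which mainly restrains BMP signalling, was at 1.12 FPKM in the silencer library and 2.05 FPKM in the si-NC library, on about 51 fragments in the silencer library and 86 in the si-NC library. SMAD7, which blocks the TGF-beta type I receptor, was at 1.49 FPKM in the silencer library and 0.942 FPKM in the si-NC library, on about 79 fragments in the silencer library and 46 in the si-NC library. On the log2 scale with a pseudocount of 1 the ratios were -0.53 for SMAD6 and 0.36 for SMAD7. The pseudocount shrinks ratios at such levels, and without it the length-weighted ratios were -0.88 (counting interval -1.40 to -0.35) for SMAD6 and 0.66 (0.12 to 1.22) for SMAD7.

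Since both inhibitors are known targets of SMAD complexes, their promoter windows (250 bases before to 50 after each RefSeq start, GRCh38.p14) were searched on both strands for the SMAD-binding palindrome GTCTAGAC and the CAGA box AGCCAGACA. The palindrome was in 1 of the 25 windows of the 10 genes, that of SMAD6, and in 0.202% of all 35116 windows; the CAGA box was in 0 of the 25 and in 0.288% of all. The SMAD6 match, in capitals, ends 5 bases before the RefSeq start, in chr15:66702184-66702235 (GRCh38.p14, plus strand), and is shown because it was the only match in the 25 windows. Sequence outside these windows was not searched, for SMAD7 as for the other genes.
SMAD6 promoter: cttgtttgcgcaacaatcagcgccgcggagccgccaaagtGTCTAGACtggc
A match in letters is a description and says nothing of binding in these cells.

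The rest of the pathway was read from 8 further lists of ligands, receptors, SMADs, latency, antagonists, cofactors, targets and SMAD-independent signalling. Of 131 genes on them besides the 10, 100 reached 1 FPKM in at least 1 library, 47 of them higher and 53 lower in the silencer library. Of all genes 49.6% were lower by any amount, the share to set beside the counts of higher and lower genes per list. At 1.5-fold 14 were higher and 7 lower, or 21.0% together against 18.7% of all genes. At 2-fold 2 were higher (2.37% of all genes were) and 2 lower (2.49% of all genes were). The median log2 ratio of the 100 genes was -0.03.

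**Figure D5:**
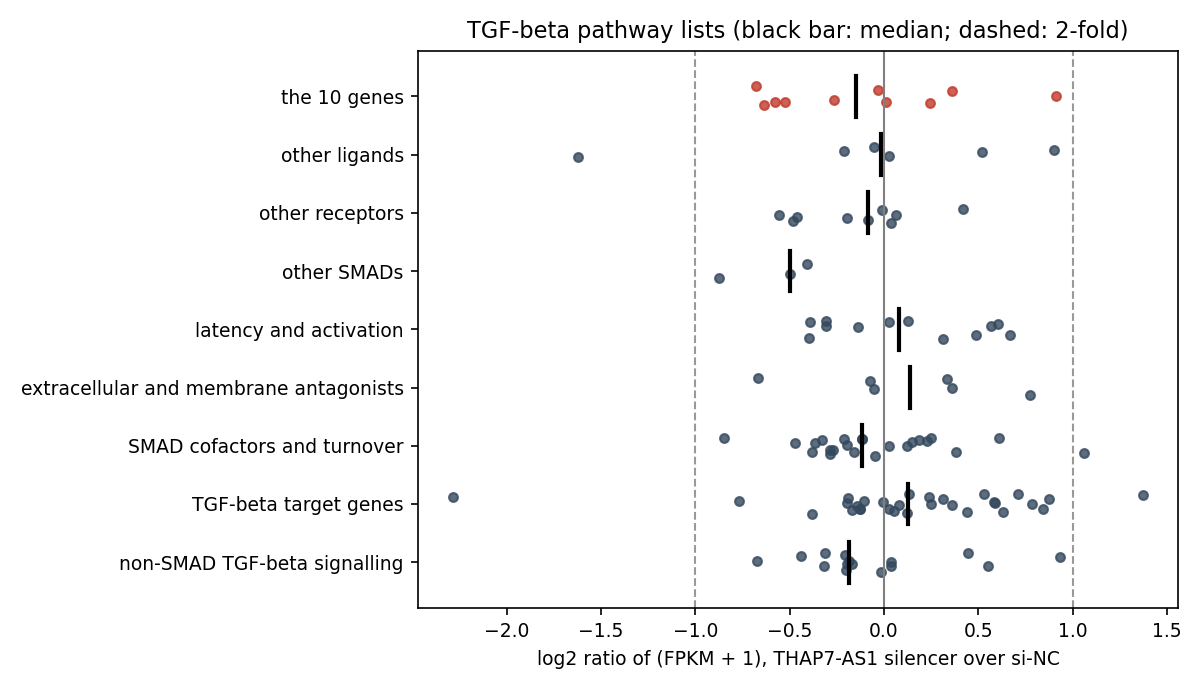
Log2 ratio of (FPKM + 1), silencer over si-NC, of each gene that reached 1 FPKM in at least 1 library (points, spread vertically for sight), by list, with the list median as a black bar and 2-fold as dashed lines. The 3 other SMADs all lie left of 0, and TGFB1I1 (-2.28) and BMP1 (-1.62) lie farthest left.

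Among the other ligands, 3 of the 6 genes past 1 FPKM were higher and 3 lower. Of those lower, BMP1 and BMP8B reached 1 FPKM only through the si-NC library. BMP4, a BMP ligand that signals through SMAD1, SMAD5 and SMAD9, was at 40.2 FPKM in the silencer library and 21.1 FPKM in the si-NC library (log2 0.90). AMH, a hormone of the same family, was at 3.80 FPKM in the silencer library and 2.36 FPKM in the si-NC library (log2 0.52). BMP1, in spite of its name a procollagen protease, was at 0.0689 FPKM in the silencer library and 2.29 FPKM in the si-NC library (log2 -1.62), on about 3 fragments in the silencer library and 81 in the si-NC library. BMP8B was at 0.899 FPKM in the silencer library and 1.20 FPKM in the si-NC library (log2 -0.21).

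All 3 BMP-responsive SMADs were lower in the silencer library, where 49.6% of all genes were lower by any amount. SMAD1 reached 1 FPKM only through the si-NC library, so the filter favoured this direction for it. SMAD5 was at 16.4 FPKM in the silencer library and 30.9 FPKM in the si-NC library (log2 -0.88). SMAD9 was at 1.12 FPKM in the silencer library and 1.99 FPKM in the si-NC library (log2 -0.50), and SMAD1 was at 0.852 FPKM in the silencer library and 1.46 FPKM in the si-NC library (log2 -0.41). The counting interval of SMAD1, on about 21 fragments in the silencer library and 28 in the si-NC library, held 0.

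Among other receptors and coreceptors 3 of 9 were higher and 6 lower, none by 1.5-fold on the FPKM + 1 scale. Length-weighted without a pseudocount, BMPR2 and TGFBR3 were past 1.5-fold lower, 2 of 9 genes where 12.3% of all genes were. The BMP type II receptor gene BMPR2 was at 9.17 FPKM in the silencer library and 14.0 FPKM in the si-NC library (log2 -0.56, and -0.62 length-weighted), and the BMP coreceptor gene RGMB was at 21.0 FPKM in the silencer library and 29.8 FPKM in the si-NC library (log2 -0.48). The type I receptor gene ACVR1 was at 8.41 FPKM in the silencer library and 6.03 FPKM in the si-NC library (log2 0.42). The activin type II receptor gene ACVR2A was at 2.15 FPKM in the silencer library and 2.02 FPKM in the si-NC library (log2 0.06). Betaglycan, TGFBR3, named for its role with TGFB2 and outside the naming rule, was at 2.80 FPKM in the silencer library and 4.25 FPKM in the si-NC library (log2 -0.46). Its length-weighted log2 ratio was -0.90, with a counting interval from -1.18 to -0.62, on about 175 fragments in the silencer library and 301 in the si-NC library.

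Genes that hold TGF-beta latent or release it had a median log2 ratio of 0.08, with 7 of 12 higher. LTBP1, among those lower, reached 1 FPKM only through the si-NC library. The integrin genes ITGB3 and ITGB5, whose products pair with alpha V and bind the latent complex, had the highest ratios on the FPKM + 1 scale. ITGB3 was at 3.57 FPKM in the silencer library and 1.88 FPKM in the si-NC library (log2 0.67), and ITGB5 was at 21.8 FPKM in the silencer library and 14.0 FPKM in the si-NC library (log2 0.60). Length-weighted without a pseudocount the order changed: LTBP3, a latent TGF-beta binding protein gene named after its values were seen, was highest at 0.94, with ITGB3 at 0.73, THBS1 at 0.51, LTBP2 at 0.43 and ITGB5 at 0.39. LTBP3 was at 12.8 FPKM in the silencer library and 8.32 FPKM in the si-NC library (log2 0.57). PLAU, the urokinase that forms plasmin, was at 36.6 FPKM in the silencer library and 48.5 FPKM in the si-NC library (log2 -0.40). NRROS, an anchor of latent TGF-beta, was at 1.45 FPKM in the silencer library and 2.21 FPKM in the si-NC library (log2 -0.39). Antagonists had a median of 0.14 over 6 genes, 3 higher and 3 lower. FSTL3, which binds and blocks activin, was at 6.98 FPKM in the silencer library and 3.68 FPKM in the si-NC library (log2 0.77), in the same direction as INHBA. The BMP antagonist gene NOG was at 34.9 FPKM in the silencer library and 26.9 FPKM in the si-NC library (log2 0.36). FSTL1 was at 37.6 FPKM in the silencer library and 60.3 FPKM in the si-NC library (log2 -0.67), and the activin-binding follistatin gene FST was at 18.5 FPKM in the silencer library and 19.5 FPKM in the si-NC library (log2 -0.07).

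Cofactors and enzymes that act on SMADs had a median of -0.12, with 9 of 23 higher and 14 lower (49.6% of all genes were lower). TGIF2, a corepressor of SMAD complexes, was the only one past 2-fold (2.37% of all genes were past 2-fold higher). It was at 9.76 FPKM in the silencer library and 4.16 FPKM in the si-NC library (log2 1.06). PPM1A, a phosphatase known to act on SMAD2 and SMAD3, was at 11.7 FPKM in the silencer library and 7.31 FPKM in the si-NC library (log2 0.61). TRIM33, a ubiquitin ligase that binds SMADs, was at 12.8 FPKM in the silencer library and 23.9 FPKM in the si-NC library (log2 -0.85, and -0.40 length-weighted without a pseudocount). USP15, a deubiquitinase of the type I receptor complex, was at 6.75 FPKM in the silencer library and 9.74 FPKM in the si-NC library (log2 -0.47, and -0.20 length-weighted with a counting interval from -0.37 to -0.03).

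Known TGF-beta target genes lay on both sides of no difference. Of 30 past 1 FPKM, 19 were higher and 11 lower, with a median log2 ratio of 0.13, against 0.00 over all genes. On that scale 7 were past 1.5-fold higher, or 23.3% of them where 9.82% of all genes were, and 2 past 1.5-fold lower, or 6.67% where 8.91% of all genes were. Of these, NEDD9 and SNAI1 reached 1 FPKM only through the silencer library, where they were higher. ACTA2 reached it only through the si-NC library. With a filter of 5 FPKM the median of the target genes was 0.03, against 0.01 over all genes. The docking protein gene NEDD9 was at 2.11 FPKM in the silencer library and 0.200 FPKM in the si-NC library (log2 1.37), on about 114 fragments in the silencer library and 10 in the si-NC library. The AP-1 gene JUNB was at 12.0 FPKM in the silencer library and 6.07 FPKM in the si-NC library (log2 0.87). TGFB1I1, the focal adhesion protein Hic-5, was at 5.95 FPKM in the silencer library and 32.9 FPKM in the si-NC library (log2 -2.28), and the smooth muscle actin gene ACTA2 was at 0.825 FPKM in the silencer library and 2.11 FPKM in the si-NC library (log2 -0.77). CCN2 (CTGF in the annotation), a matricellular protein gene often used as a readout of the pathway and named after its values were seen, was at 144 FPKM in the silencer library and 160 FPKM in the si-NC library (log2 -0.15). The target list includes SMAD7, PMEPA1, SKIL and LTBP2, which other lists here also hold. On the FPKM + 1 scale TGFB1I1 was the target gene past 2-fold lower (2.49% of all genes were) and NEDD9 the one past 2-fold higher (2.37% of all genes were). Length-weighted without a pseudocount, 10 of 30 were past 1.5-fold higher (12.7% of all genes were) and 2 past 1.5-fold lower (12.3% of all genes were). Among those higher, NEDD9, SNAI1, COL1A1 and SMAD7 reached 1 FPKM only through the silencer library, so the filter favoured this direction for them. At 2-fold on the length-weighted measure 3 of 30 were higher (4.56% of all genes were) and 2 lower (4.29% of all genes were). The genes added at 2-fold, named after their values were seen, were ANGPTL4 (1.27, on about 69 fragments in the silencer library and 26 in the si-NC library), SNAI1 (1.51, on about 21 in the silencer library and 7 in the si-NC library) and ACTA2 (-1.52, on about 11 in the silencer library and 28 in the si-NC library).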

How the data were processed

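RNA from 1 culture per group was sequenced. Per the submitters' processing notes, the authors used cutadapt, HISAT2 2.0.5, StringTie and the hg19 build; settings are not stated there. The deposited values were read as FPKM (fragments divided by transcript length and by the mapped total), since the file header names no unit. Which annotation was used, whether strand was counted and which filters were applied is not given in the sources used here.

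The table held 39605 transcripts, of which 99.5% matched GENCODE release 29 by ID without version. That release is on GRCh38, so it supplied symbols, lengths, GC content and transcript models, and every coordinate is its own or that of RefSeq on GRCh38.p14. For gene values FPKM was summed over the listed transcripts of each of 12918 genes. The log2 ratio was log2((silencer + 1)/(si-NC + 1)), with a filter of 1 FPKM in at least 1 library for counts over genes. With 1 library per group no p-value exists, and no test was run.

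Low values of genes with 1 listed transcript, times length, peaked at 84 in the silencer and 91.0 in the si-NC library. This was taken as the worth of 1 fragment and gave approximate fragments. Intervals are exact Clopper-Pearson intervals at 95% on those fragments, and cover counting error only. The column headed si-nc was matched by name and the column headed si-v by elimination. The 10 genes, the pathway lists and the rules were chosen with earlier results of these data known. The rule for named genes took the 10 genes and the 2 highest and 2 lowest ratios of each other list. The share of a gene's FPKM moved between transcripts was chosen after the values were seen. Alternatives were other pseudocounts, filters and scalings, the most abundant transcript only, fragments per gene and removal of a GC and length trend. Counts on length-weighted ratios without a pseudocount were added after the data were seen. The gene ratios, the 2-fold call and the counting intervals were tested on simulated counts. The simulation did not cover the division of shared reads, the share moved between transcripts, the GC and length trend or variation between cultures. Python 3.11.15, pandas 2.3.3 and scipy 1.17.1 were used. A gene of the target list is not reported here by name.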

Additional observations from a re-analysis of the deposited data

How the results depend on the processing

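No paired analysis was possible because each group had 1 library, and for the same reason no library could be left out. Over the 10 genes and 7 alternatives, 60 of 70 log2 ratios moved by less than the gene's counting error, and 2 of 70 turned sign: TGFBR1 to -0.66 with the most abundant transcript only, and SMAD2, near 0, to -0.01 on fragments per gene. With the GC and length trend removed TGFB1 was at -0.23, TGFB2 at -0.03 and TGFBR1 at 0.48. The count of the 10 genes past 2-fold, 0 as reported, was 1 with a pseudocount of 0.1 or 0.5 (INHBA, at 1.27 and 1.08) and 1 with the most abundant transcript only (TGFBR2, at -2.58). The share of all genes past 2-fold was 4.86% as reported. It was 8.68% with a pseudocount of 0.1, 6.41% with 0.5 and 12.6% with the most abundant transcript only. The count past 1.5-fold and higher, 1 as reported, was 2 with a pseudocount of 0.1 (INHBA and SMAD7) and 0 with a filter of 5 FPKM or the most abundant transcript only. The count past 1.5-fold and lower, 2 as reported (TGFBR2 and SMAD4), was 4 with a pseudocount of 0.1 or 0.5, with SMAD3 and SMAD6 added, and 1 with a filter of 5 FPKM (TGFBR2). It was 3 with the GC and length trend removed, where SMAD3 (-0.61) and SMAD6 (-0.65) joined TGFBR2 (-0.62) and SMAD4 dropped out at -0.41. It was 2 on fragments per gene, where the pair was TGFBR2 and SMAD6, and 2 with the most abundant transcript only, where it was TGFBR1 and TGFBR2. Over all genes, 25.2% passed 1.5-fold in either direction with a pseudocount of 0.1, 21.9% with 0.5, 28.1% with the most abundant transcript only and 15.7% with the trend removed. Length-weighted ratios without a pseudocount, counted after the data were seen, gave 2 of the 10 genes past 1.5-fold higher. They gave 3 target genes past 2-fold higher and 2 lower against 1 and 1 as reported, and 2 other receptor genes past 1.5-fold lower against 0. Past 1.5-fold lower, other SMADs and SMAD-independent genes went from 1 to 2, latency genes from 0 to 1 and cofactors from 1 to 0. Past 1.5-fold higher, other ligands went from 1 to 2 and cofactors from 2 to 1. Past 2-fold higher, antagonists and SMAD-independent genes each went from 0 to 1. The share of all genes past 2-fold higher went from 2.37% to 4.56%. With the most abundant transcript only, the median was -1.16 for the other SMADs, against -0.50 as reported, and 0.27 for latency and activation, against 0.08. With a filter of 5 FPKM the median was 0.90 for the other ligands, where BMP4 alone remained, against -0.01, and -0.055 for the antagonists, against 0.14. The cause of these changes was not tested, apart from the fewer genes that a stricter filter leaves. The median over the 10 genes was -0.15 as reported and -0.31 with the most abundant transcript only. Scaling to the same sum or by the median ratio changed no count of the 10 genes. Depth limits SMAD6, SMAD7 and INHBA most, with at most 153 approximate fragments in either library.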

Other observations

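TGF-beta receptors also signal without SMADs, through the kinase TAK1 and its TAB partners, through the adaptors SHC1 and GRB2 to RAS, and through RHOA. Of 16 genes on a list of this branch, 15 reached 1 FPKM in at least 1 library. Of the 15, 5 were higher and 10 lower in the silencer library, where 49.6% of all genes were lower by any amount. The median log2 ratio of the 15 was -0.18. GRB2, the adaptor that carries SOS1 to activated receptors, was at 33.2 FPKM in the silencer library and 16.9 FPKM in the si-NC library (log2 0.93). SOS1, the exchange factor that loads RAS with GTP, was at 7.94 FPKM in the silencer library and 13.3 FPKM in the si-NC library (log2 -0.67), so the pair lay on opposite sides of 1.5-fold. DAXX, a nuclear corepressor, was at 35.9 FPKM in the silencer library and 24.1 FPKM in the si-NC library (log2 0.55). MAPK8, the stress kinase JNK1, was at 10.7 FPKM in the silencer library and 14.9 FPKM in the si-NC library (log2 -0.44, and -0.28 length-weighted without a pseudocount). XIAP, named after its values were seen, was at -0.21 on the FPKM + 1 scale. Length-weighted without a pseudocount it was the lowest of this list at -0.81, with a counting interval from -1.08 to -0.53. XIAP had about 178 fragments in the silencer library and 287 in the si-NC library. MAP3K7, the gene of TAK1, named after its values were seen, was at 9.82 FPKM in the silencer library and 9.55 FPKM in the si-NC library (log2 0.04).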
